A study of Mus musculus with 6 samples.

Results

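The transcripts of 10 genes that mark T cells, natural killer (NK) cells and B cells were examined in liver tissue with and without SPNS1. The 10 genes were taken by name from the 54532 genes of the deposited table, and each name was found there. They were *Cd3e* and *Cd3g* of the T cell receptor complex, the coreceptors *Cd4* and *Cd8a*, the NK and cytotoxic genes *Gzma*, *Nkg7* and *Ncr1*, and *Cd79a*, *Cd79b* and *Ighm* of the B cell receptor. The question for each gene was whether its level differed after loss of SPNS1, a transporter of the lysosome membrane.

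RNA-Seq was done on whole liver tissue of 3 g*Spns1*-cKO and 3 control C57BL/6 mice, with 1 library from each mouse. The g*Spns1*-cKO mice were *Spns1* fl/fl and expressed a Cre recombinase activated by tamoxifen from the ubiquitously active Rosa26 locus (Rosa26Cre-ERT2). Tamoxifen was injected at 50 mg/kg on postnatal days 11, 13 and 15 to remove exon 3 in the whole body, so that lymphocytes as well as hepatocytes could lose the gene. Per the paper the controls were *Spns1* fl/fl littermates without Cre, whereas the labels call them WT. Neither the age at harvest nor whether the control mice received tamoxifen is given in the sources used here.

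T cells recognise antigen through a receptor whose signal is carried into the cell by the CD3 chains, with CD4 on helper cells and CD8 on cytotoxic cells as coreceptors. NK cells kill infected or stressed cells without an antigen receptor, by releasing granzymes from granules, and the liver is known as a tissue rich in them. B cells carry surface immunoglobulin, whose mu heavy chain is encoded by *Ighm*, together with the signalling pair CD79A and CD79B. Plasma cells, into which B cells mature, lose the surface receptor and secrete antibody.

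The libraries held between 30350002 and 35295611 counts, and a gene at 3 counts in a library stood at 0.0763 to 0.119 CPM (counts scaled to a common, TMM-normalised library size). In total 15449 genes were tested with edgeR's quasi-likelihood test, and 6452 of them, 41.8%, passed an adjusted p of 0.05. By direction, 21.3% rose and 20.5% fell in the g*Spns1*-cKO group. All 3 g*Spns1*-cKO libraries stood above all control libraries for 27.1% of genes and below them for 26.9%. The targeted gene *Spns1* was counted 1008, 1562 and 875 times in the controls against 642, 1175 and 698 times in the g*Spns1*-cKO group. Its CPM did not overlap between groups and fell by 0.87 ± 0.25 (SE) on the log2 scale (adjusted p = 0.03, edgeR).

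Of the 10 lymphocyte genes, 3 rose (*Gzma*, *Nkg7* and *Ncr1*), 1 fell (*Cd4*) and 6 did not pass the test. The share called, 40%, lay near the 41.8% of all genes, so the count by itself set these genes apart in no way. Their median log2 fold change was 0.42, against 0.014 over all genes tested. All of them except *Ighm* were rare in this tissue, with under 100 counts in every library. *Cd3e*, *Cd8a*, *Gzma*, *Nkg7* and *Ncr1* had under 10 counts in at least 1 control library, and would not have passed the filter on low counts from the control livers alone. For *Gzma*, *Nkg7* and *Ncr1* that filter therefore favoured a difference. *Ncr1* was the one gene with under 3 counts in every control library. Because whole tissue was sequenced, fewer cells of a type and less RNA per cell cannot be told apart in any of these values.

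**Figure D1:**
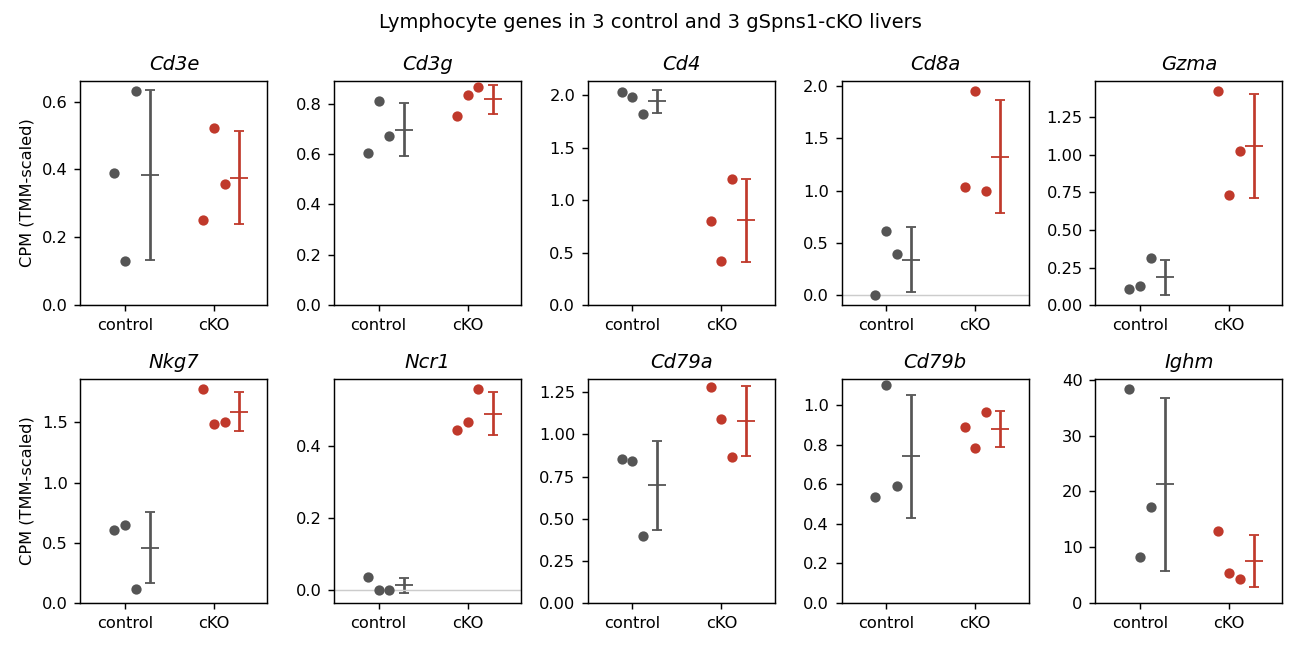
TMM-scaled CPM of each lymphocyte gene (vertical axes, each with its own range) in 3 control (grey) and 3 g*Spns1*-cKO (red) livers. A point is 1 mouse and the bar gives the mean ± SD. The red points lie above all grey points for *Cd8a*, *Gzma*, *Nkg7*, *Ncr1* and *Cd79a*, and below them for *Cd4*.

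The NK and cytotoxic genes were the members that rose. *Gzma* encodes granzyme A, a serine protease of killer cell granules. It had 3, 4 and 8 counts in the control libraries and 51, 28 and 40 in the g*Spns1*-cKO libraries. The lowest g*Spns1*-cKO value lay above the highest control value. The mean was 0.184 ± 0.115 CPM (SD, n = 3) in control and 1.06 ± 0.345 CPM in g*Spns1*-cKO livers, a 5.75-fold rise (log2 fold change 2.52 ± 0.52 SE, adjusted p = 0.00341 by edgeR).

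*Nkg7* encodes a membrane protein of cytotoxic granules, made by NK cells and by activated CD8 T cells. Its counts were 17, 20 and 3 in control and 64, 57 and 59 in g*Spns1*-cKO livers. The g*Spns1*-cKO livers lay close together, and control replicate 3 stood well under the other two controls. CPM rose from 0.458 ± 0.294 to 1.59 ± 0.165 (log2 fold change 1.76 ± 0.48 SE, adjusted p = 0.0137 by edgeR).

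*Ncr1* encodes NKp46, an activating receptor that marks NK cells and related innate lymphoid cells. A single count was found in control replicate 1 and none in control replicates 2 and 3, whereas the g*Spns1*-cKO libraries held 16, 18 and 22. The transcript was thus at the limit of detection in control livers and seen in each g*Spns1*-cKO liver. Summed over a group, 56 counts against 1 gave a ratio of 41.5 after scaling, with an exact 95% interval for counting error of 7.15 to 1668. The fitted log2 fold change was 4.98 ± 0.85 SE (adjusted p = 0.00121 by edgeR), and it depends on the prior count that edgeR adds. The 3 genes kept their direction and passed the threshold in each of the 12 alternatives that tested them.

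The promoters of these 3 genes are shown because they were the members that moved together. Each is the RefSeq sequence from 250 bases before to 50 bases after the start of the gene on GRCm38.p6, written 5′ to 3′ on the gene's strand. Capitals mark the letters TGTGGT, the core bound by RUNX factors, and TCACAC, the core bound by T-box factors such as T-bet and Eomes, on either strand (ACCACA and GTGTGA when reversed). *Gzma* is at chr13:113100932-113101231 on the minus strand, *Nkg7* at chr7:43436888-43437187 and *Ncr1* at chr7:4337474-4337773, both on the plus strand.
Gzma: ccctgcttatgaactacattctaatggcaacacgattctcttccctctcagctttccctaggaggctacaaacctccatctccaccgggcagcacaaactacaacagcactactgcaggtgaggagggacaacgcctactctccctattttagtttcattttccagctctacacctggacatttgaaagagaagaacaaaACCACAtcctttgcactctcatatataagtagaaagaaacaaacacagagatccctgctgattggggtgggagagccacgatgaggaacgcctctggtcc
Nkg7: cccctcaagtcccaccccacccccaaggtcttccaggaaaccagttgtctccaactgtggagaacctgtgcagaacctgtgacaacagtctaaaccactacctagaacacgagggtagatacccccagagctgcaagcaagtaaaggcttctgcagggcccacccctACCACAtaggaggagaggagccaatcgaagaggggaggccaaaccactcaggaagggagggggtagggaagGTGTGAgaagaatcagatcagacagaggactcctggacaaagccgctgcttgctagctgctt
Ncr1: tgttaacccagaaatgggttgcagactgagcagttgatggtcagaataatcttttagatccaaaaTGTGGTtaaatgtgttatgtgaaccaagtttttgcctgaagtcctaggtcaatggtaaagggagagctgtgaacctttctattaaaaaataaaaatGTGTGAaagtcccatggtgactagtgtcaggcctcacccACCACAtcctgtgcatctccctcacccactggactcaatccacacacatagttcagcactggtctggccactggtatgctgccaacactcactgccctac
The RUNX letters were present in all of these 3 promoters, and among the 7 members with a promoter entry only in these, against 16.7% of 32544 promoters of the same length. *Cd4*, *Cd79b* and *Ighm* had no promoter entry. The first base of the RUNX letters stood at -50 from the RefSeq gene start in *Gzma* and in *Ncr1*, and at -83 in *Nkg7*, each time on the strand opposite to the gene. For *Nkg7* that start lies downstream of the start in the deposited annotation, 43437073, so its positions hold for the RefSeq start only. *Ncr1* held a further RUNX match at -185. The T-box letters were present in *Nkg7* at -12 and in *Ncr1* at -89, against 14.3% of promoters. The letters GGAAG of the ETS family were found in 5 of the 7 members and in 71.3% of promoters. No match overlapped a match to another motif. These are descriptions of letters and not of bound sites. The 3 promoters and the motifs were chosen after the values were seen, so that the shares are no test of enrichment.

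Of the NK and cytotoxic list, which holds no member, 14 of 24 genes were tested and the other 10 were too rare. Of these 14, 6 were higher, none was lower and 8 did not pass (median log2 fold change 1.29), beside 21.3% higher and 20.5% lower over all genes. With at least 10 counts in every library 3 were higher. *Klrd1*, which encodes the CD94 chain of NK receptors, had 7, 5 and 6 counts in control and 58, 67 and 45 in g*Spns1*-cKO livers (log2 fold change 2.78 ± 0.41 SE, adjusted p = 0.000501 by edgeR). *Klrk1*, which encodes the activating receptor NKG2D, had 21, 15 and 12 counts against 80, 82 and 71 (1.84 ± 0.32, adjusted p = 0.00136). *Gzmb*, the gene of granzyme B, had 18, 13 and 22 counts against 93, 82 and 76 (1.79 ± 0.34, adjusted p = 0.00208). In none of these 3 genes did the groups overlap. *Klrb1c*, *Ccl5* and *Cd244a* were the other genes of the list that rose. *Klrd1*, *Klrb1c* and *Cd244a* had under 10 counts in at least 1 control library, so that the filter favoured a rise for them as well.

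A further 3 genes of the list are given here, chosen after their values were seen. *Tbx21*, the gene of T-bet, a transcription factor of NK cells, had 8, 0 and 10 counts in control and 10, 9 and 11 in g*Spns1*-cKO livers (log2 fold change 0.26 ± 0.79 SE, adjusted p = 0.813 by edgeR), and the groups overlapped. *Eomes*, a related factor, had 1, 2 and 0 counts against 4, 3 and 7, and was not tested. *Prf1*, the gene of the pore-forming protein perforin, was likewise not tested, at 1, 6 and 2 counts against 8, 14 and 8. For both untested genes every g*Spns1*-cKO value lay above every control value.

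**Figure D2:**
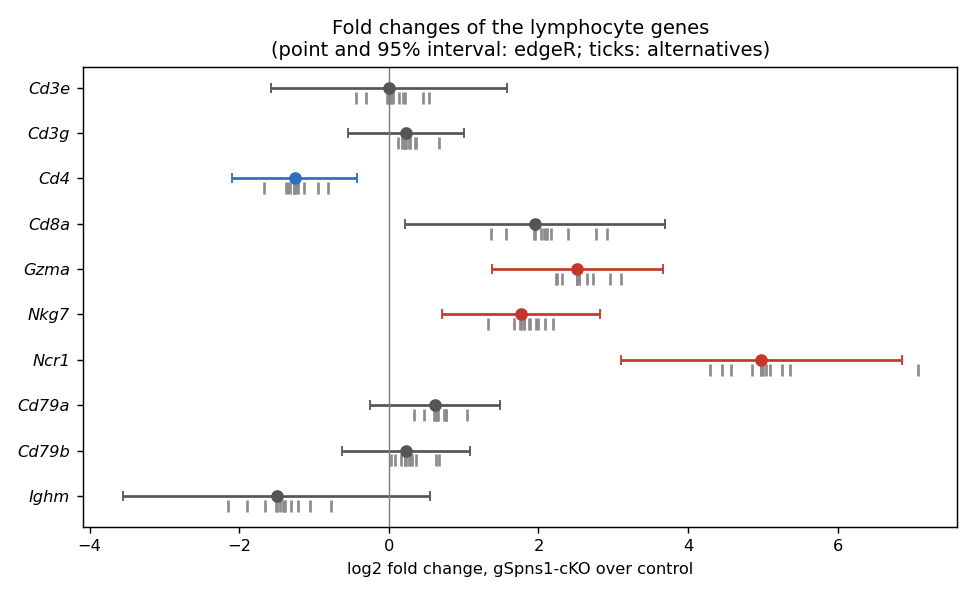
Log2 fold change of each lymphocyte gene, g*Spns1*-cKO over control, with its 95% interval (edgeR). Red marks genes called higher, blue lower and dark grey not called, and the small grey ticks give the alternatives. The intervals of *Gzma*, *Nkg7* and *Ncr1* lie to the right of 0 and that of *Cd4* to the left, while the interval of *Ighm* runs from -3.56 to 0.55.

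The CD3 chains did not follow the NK genes. *Cd3e* had 11, 4 and 16 counts in control and 9, 20 and 14 in g*Spns1*-cKO livers, and the groups overlapped throughout. Its CPM was 0.384 ± 0.251 and 0.376 ± 0.137 (adjusted p = 0.999, edgeR), and the 95% interval of the fold change ran from 0.334 to 2.99. *Cd3g* had 17, 25 and 17 counts against 27, 32 and 34, with CPM of 0.696 ± 0.106 and 0.817 ± 0.0592. After scaling, the highest control value lay among the g*Spns1*-cKO values, and the fold change had an interval of 0.687 to 1.99 (adjusted p = 0.631, edgeR). For *Cd3e* a rise or fall of nearly 3-fold thus remained within the interval. Both genes lie on chromosome 9, at 44998740-45009627 and 44969572-44980431. *Cd3e* overlaps 2 other annotated genes, *Gm48719* and *Gm48720*, which had 0 counts.

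Of the coreceptors, *Cd4* fell and *Cd8a* did not pass the test. *Cd4* (chromosome 6, 124864692-124888221) had 57, 61 and 46 counts in control and 29, 16 and 47 in g*Spns1*-cKO livers. The raw count of g*Spns1*-cKO replicate 3 lay within the control range, and after scaling every g*Spns1*-cKO value lay below every control value. CPM fell from 1.94 ± 0.11 to 0.806 ± 0.389, a 2.4-fold difference (log2 fold change -1.26 ± 0.38 SE, adjusted p = 0.0212 by edgeR). The call was lost without control replicate 2 (log2 fold change -1.25, adjusted p = 0.0534), without g*Spns1*-cKO replicate 2 (-0.95, adjusted p = 0.0529) and with scaling by library size only (-0.82, adjusted p = 0.0898).

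*Cd8a* (chromosome 6, 71373427-71379173) had 0, 19 and 10 counts in control and 37, 75 and 39 in g*Spns1*-cKO livers. All g*Spns1*-cKO livers stood above all controls, with CPM of 0.337 ± 0.313 and 1.33 ± 0.546. The difference did not pass the threshold (log2 fold change 1.95 ± 0.76 SE, adjusted p = 0.0701 by edgeR), and it did pass with DESeq2 (1.96, adjusted p = 0.0174) and with limma-voom (2.92, adjusted p = 0.043). *Cd8b1*, the gene of the CD8 beta chain carried by conventional cytotoxic T cells, had 7, 2 and 2 counts against 21, 23 and 12 and rose (1.89 ± 0.62, adjusted p = 0.0323 by edgeR), although with under 10 counts in every control it was tested only through the g*Spns1*-cKO livers. Within each library, *Cd8a* made up 0, 23.8 and 17.9% of the summed *Cd4* and *Cd8a* counts in the controls and 56.1, 82.4 and 45.3% in g*Spns1*-cKO livers. This share needs no scaling between libraries, and the groups did not overlap.

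Dendritic cells can also carry CD4 or CD8 alpha. Of 7 tested dendritic cell genes 4 rose and none fell, beside 21.3% rising and 20.5% falling over all genes. Their list summed to 14.8 to 15.7 CPM in control and 24.8 to 25.8 CPM in g*Spns1*-cKO livers. *Clec9a*, a receptor of the dendritic cells that cross-present antigen, rose (1.42 ± 0.25, adjusted p = 0.00139 by edgeR), while *Xcr1*, which marks the same cells, had 8, 20 and 25 counts against 18, 19 and 14. The part of dendritic cells in the coreceptor values was not tested.

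Of the wider T cell list, 21 of 33 genes were tested, and 4 rose, 2 fell and 15 did not pass, with a median log2 fold change of 0.61. Neither count exceeded the share over all genes tested, where 21.3% rose and 20.5% fell. The 4 that rose were *Cd8b1*, *Tcrg-C2*, *Tcf7* and *Thy1*. Like *Cd8b1*, *Tcrg-C2* had under 10 counts in every control and was tested only through the g*Spns1*-cKO livers. The number of T cell genes called higher was 0 without control replicate 2, 2 without control replicate 3, and 1 without g*Spns1*-cKO replicate 2 or 3. The receptor chain genes *Trac* (log2 fold change 0.62, adjusted p = 0.261), *Trbc1* (0.90, adjusted p = 0.1) and *Trbc2* (0.45, adjusted p = 0.398) did not pass, nor did *Cd3d* (-0.23, adjusted p = 0.699, edgeR). These 4 genes were chosen after their values were seen.

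The 2 genes that fell belong to T cell receptor signalling. *Zap70*, the kinase that binds the phosphorylated CD3 chains, had 583, 728 and 696 counts in control and 266, 298 and 222 in g*Spns1*-cKO livers (log2 fold change -1.79 ± 0.16 SE, adjusted p = 3.35e-05 by edgeR). *Themis*, which acts in the selection of thymocytes, had 82, 34 and 114 counts against 12, 10 and 8 (-3.40 ± 0.53, adjusted p = 0.000872). The groups of both genes lay far apart. *Zap70* was far more abundant per length than the CD3 chain gene *Cd3e*. It stood at 7.95 FPKM (counts scaled to gene length and library total) in control livers, where *Cd3e* stood at 0.0935. In g*Spns1*-cKO livers the values were 2.29 and 0.0908. Which cells carried the *Zap70* transcript was not tested.

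The B cell receptor genes gave no call. *Cd79a* had 24, 26 and 10 counts in control and 46, 42 and 34 in g*Spns1*-cKO livers. All g*Spns1*-cKO values lay above all control values, at 1.08 ± 0.207 CPM against 0.698 ± 0.262, with the nearest values almost touching. The log2 fold change was 0.61 ± 0.39 SE with a 95% interval of -0.25 to 1.48 (adjusted p = 0.233, edgeR). Its partner *Cd79b* had 15, 34 and 15 counts against 32, 30 and 38, and control replicate 2 stood above all g*Spns1*-cKO livers after scaling. CPM was 0.743 ± 0.314 and 0.879 ± 0.0928 (log2 fold change 0.23 ± 0.39, adjusted p = 0.665 by edgeR). The genes lie at 24897381-24902197 on chromosome 7 and 106311341-106314762 on chromosome 11.

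*Ighm* (chromosome 12, 113418558-113422730) was the most abundant member and had the largest SD in CPM. Its counts were 1080, 252 and 435 in control and 464, 204 and 169 in g*Spns1*-cKO livers. Control replicate 1 stood far above the rest, and g*Spns1*-cKO replicate 1 lay within the control range. CPM was 21.3 ± 15.5 and 7.5 ± 4.7 (log2 fold change -1.50 ± 0.77 SE, adjusted p = 0.194 by edgeR), and without control replicate 1 the log2 fold change was -0.77 (adjusted p = 0.399). The difference did not exceed the spread between mice.

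Several other immunoglobulin genes rose, while *Ighd* (log2 fold change 0.025, adjusted p = 0.978) and *Iglc3* (-0.33, adjusted p = 0.717, edgeR) did not pass. Neither did *Ighg1* (1.63, adjusted p = 0.0578), *Ighg2c* (1.65, adjusted p = 0.0528) and *Iglc2* (2.25, adjusted p = 0.13, edgeR), and *Ighg3* was not tested. Counts over the heavy chain constant genes summed to 2991, 3742 and 2923 in control and 5728, 9867 and 6384 in g*Spns1*-cKO livers. *Ighm* held 36.1, 6.73 and 14.9% of them in control and 8.1, 2.07 and 2.65% in g*Spns1*-cKO livers, and one g*Spns1*-cKO liver lay within the control range. The IgG genes held 10.2, 13.2 and 10.6% against 13.5, 32.1 and 27.7%, with no overlap, although the nearest values, 13.2 and 13.5%, almost touched. *Igha*, the heavy chain gene of the mucosal antibody IgA, held the largest share in every library, from 52.5 to 79.7%.

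*Ighg2b* had 150, 165 and 94 counts in control and 366, 1600 and 779 in g*Spns1*-cKO livers (log2 fold change 2.31 ± 0.58 SE, adjusted p = 0.0296 by edgeR). *Igha* (0.77 ± 0.23, adjusted p = 0.0275), the kappa light chain gene *Igkc* (0.93 ± 0.21, adjusted p = 0.00841) and the J chain gene *Jchain* (1.25 ± 0.19, adjusted p = 0.0012) rose as well, and were chosen after their values were seen. Each of these 4 genes was higher in all 3 g*Spns1*-cKO livers than in any control. The IgG genes resemble each other closely, so that reads may be split between them.

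**Figure D3:**
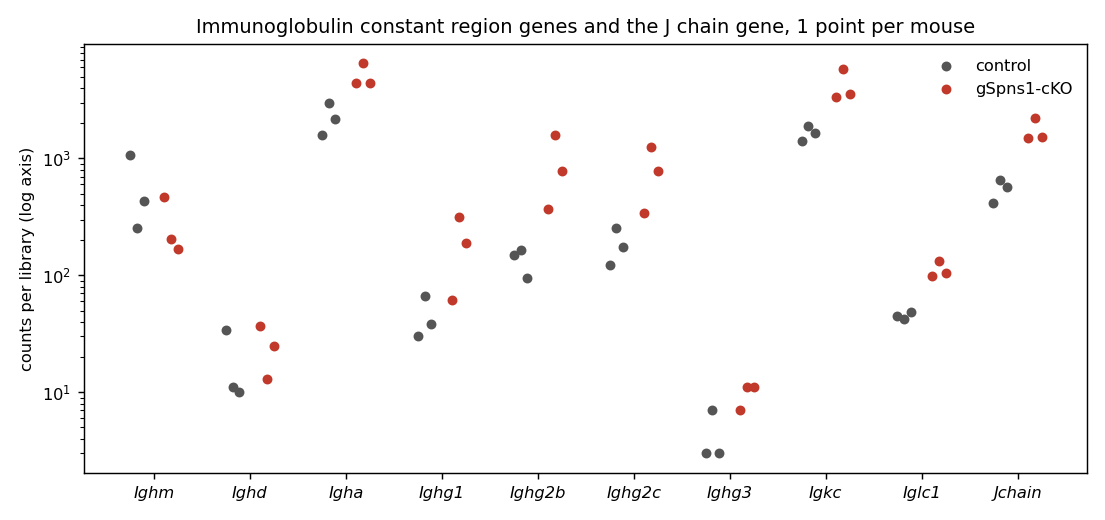
Counts per library (log axis) of the immunoglobulin constant region genes and the J chain gene in 3 control (grey) and 3 g*Spns1*-cKO (red) livers, 1 point per mouse. *Ighm* overlaps between the groups with its highest value, 1080, in a control liver, whereas *Igha*, *Igkc* and *Jchain* lie higher in every g*Spns1*-cKO liver.

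The B cell list includes immunoglobulin genes such as *Igkc* and *Iglc1*. Of its 25 genes 16 were tested. Beside 21.3% rising and 20.5% falling over all genes, 9 of these 16 rose, none fell and 7 did not pass (median log2 fold change 1.01). Without control replicate 1 the number that rose was 5. *Ly6d*, a surface marker of early B cell commitment, had 15, 33 and 20 counts in control and 657, 77 and 323 in g*Spns1*-cKO livers (3.56 ± 0.94, adjusted p = 0.034 by edgeR). *Cd72*, an inhibitory coreceptor of B cells, had 19, 40 and 46 counts against 147, 115 and 142 (1.50 ± 0.33, adjusted p = 0.00503). *Iglc2*, a lambda light chain gene, had 23, 5 and 42 counts against 92, 53 and 329 and did not pass (2.25 ± 1.00, adjusted p = 0.13). The members *Cd79a* and *Cd79b* were not part of this list.

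In the plasma cell list 9 of 11 genes were tested. Of these 9, 4 were higher, 1 lower and 4 not called (median log2 fold change 1.25), beside 21.3% higher and 20.5% lower over all genes. Without control replicate 3 the number higher was 2, and the number lower was 0 without control replicate 2 or without any 1 of the g*Spns1*-cKO replicates. *Prdm1*, the gene of the plasma cell regulator BLIMP-1, had 12, 12 and 3 counts in control and 65, 59 and 37 in g*Spns1*-cKO livers (2.16 ± 0.48, adjusted p = 0.00502 by edgeR). With under 10 counts in 1 control library, it passed the filter only through the g*Spns1*-cKO livers. *Derl3*, which acts in the clearance of misfolded secretory proteins, had 65, 443 and 618 counts against 21, 48 and 39 and fell (-3.85 ± 1.00, adjusted p = 0.0359). The lowest control liver for *Derl3* stood closer to the g*Spns1*-cKO livers than to the other controls.

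Per length, *Ighm* was the highest of the 10 genes in both groups, at 11.1 FPKM (range 4.33 to 20) in control and 3.93 FPKM (2.25 to 6.76) in g*Spns1*-cKO livers. In control livers *Cd79b*, *Nkg7*, *Cd4* and *Cd79a* followed at 0.516, 0.496, 0.478 and 0.475 FPKM, with ranges that overlapped. *Cd3g* and *Gzma* came next at 0.211 and 0.182 FPKM, then *Cd3e* and *Cd8a* at 0.0935 and 0.0925, with neighbours again overlapping, and *Ncr1* was lowest at 0.00756. In the g*Spns1*-cKO group *Nkg7* (1.71 FPKM, range 1.6 to 1.92) and *Gzma* (1.03, range 0.712 to 1.39) stood next to *Ighm*. *Cd4* moved to the ninth of 10 places at 0.197 FPKM, below *Cd8a* at 0.359, *Ncr1* at 0.315 and *Cd3g* at 0.246, and above *Cd3e* at 0.0908.

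The number of leukocytes in the sequenced tissue is not given, and their shared genes give a second scale. By immunostaining, the paper counted more macrophages in liver sections of g*Spns1*-cKO mice. It also reports a raised white cell count in their blood. *Ptprc*, which encodes the CD45 protein of all leukocytes, had 120, 124 and 161 counts in control and 659, 616 and 629 in g*Spns1*-cKO livers (1.79 ± 0.18, adjusted p = 6.73e-05 by edgeR). Macrophage genes were higher in 14 of 15, beside 21.3% higher and 20.5% lower over all genes tested. Their summed level was 192 to 311 CPM in control and 833 to 1198 CPM in g*Spns1*-cKO livers. Macrophages carry CD45, so the scale itself holds more than lymphocytes, and their part in it was not tested.

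Per 100 *Ptprc* counts, *Cd3e* and *Cd3g* together had 23.3, 23.4 and 20.5 counts in control and 5.46, 8.44 and 7.63 in g*Spns1*-cKO livers, 3.12 times less on average. *Cd4* had 47.5, 49.2 and 28.6 against 4.4, 2.6 and 7.47, and *Cd79a* with *Cd79b* 32.5, 48.4 and 15.5 against 11.8, 11.7 and 11.4. All 3 quantities lay lower in every g*Spns1*-cKO liver than in any control. The sum of *Gzma*, *Nkg7* and *Ncr1* was 17.5, 19.4 and 6.83 in control and 19.9, 16.7 and 19.2 in g*Spns1*-cKO livers, and overlapped. Of the 3 genes taken singly, only *Ncr1* (0.833, 0 and 0 against 2.43, 2.92 and 3.5) was higher in each g*Spns1*-cKO liver on this scale.

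**Figure D4:**
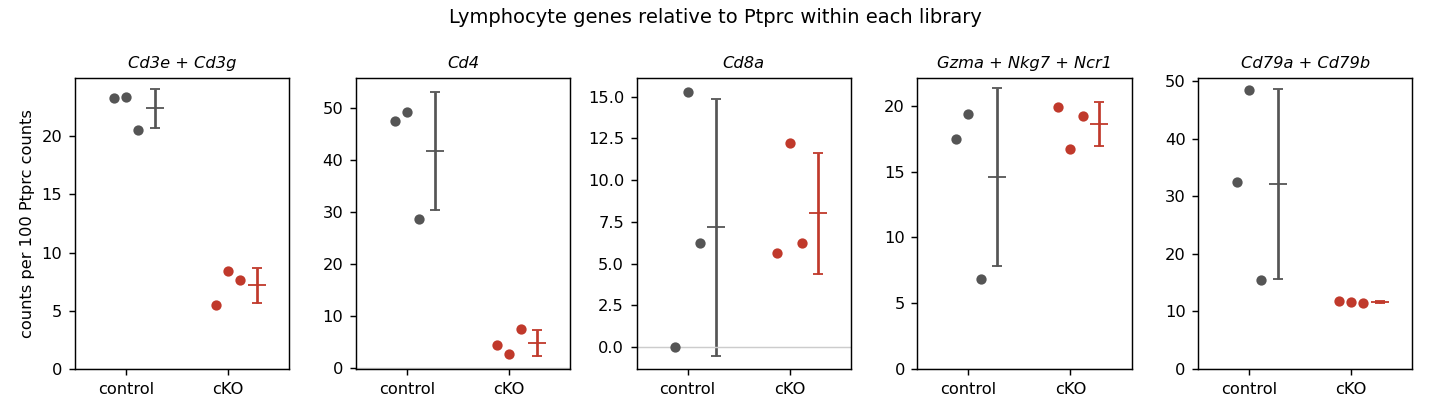
Counts of lymphocyte genes per 100 *Ptprc* counts of the same library in 3 control (grey) and 3 g*Spns1*-cKO (red) livers, with mean ± SD, each panel on its own axis. The CD3 pair, *Cd4* and the CD79 pair lie lower in every g*Spns1*-cKO liver, and the sum of *Gzma*, *Nkg7* and *Ncr1* and *Cd8a* overlap.

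These orders depended on the scale. Per 1000 counts of 11 pan-leukocyte genes, the NK genes were higher in g*Spns1*-cKO livers (14.1, 13.9 and 14.4 against 5.3, 5.39 and 2.78), while the CD3 pair and the CD79 pair overlapped. *Cd4* was lower on both scales, at 14.4, 13.7 and 11.6 against 3.12, 2.16 and 5.59 per 1000 pan-leukocyte counts. *Lcp1*, whose level did not pass the test (log2 fold change -0.21, adjusted p = 0.373, edgeR), supplied 61.6 to 69.2% of the pan-leukocyte counts in control and 31.7 to 41.1% in g*Spns1*-cKO livers.

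Genes that draw lymphocytes into tissue were examined as a further list, of which 15 of 19 were tested. Of these, 9 rose, 1 fell and 5 did not pass (median log2 fold change 1.07), beside 21.3% rising and 20.5% falling over all genes. *Vcam1*, the endothelial ligand of lymphocyte integrins, had 283, 396 and 426 counts in control and 2030, 2330 and 2023 in g*Spns1*-cKO livers (2.09 ± 0.17, adjusted p = 3.14e-05 by edgeR). *Cxcl10*, a chemokine that attracts activated T and NK cells, had 34, 37 and 28 counts against 158, 93 and 296 (2.02 ± 0.39, adjusted p = 0.00287). Its receptor gene *Cxcr3* rose too, from 5, 3 and 6 counts to 22, 28 and 20 (1.85 ± 0.50, adjusted p = 0.0137, chosen after its values were seen), and with at most 6 counts in a control it passed the filter only through the g*Spns1*-cKO livers. *S1pr5*, the sphingosine-1-phosphate receptor used by NK cells to leave tissues, was the gene that fell, with 278, 475 and 375 counts against 120, 148 and 123 (-1.96 ± 0.20, adjusted p = 6.11e-05). *S1pr5* thus moved against the NK receptor and granzyme genes, with no overlap between groups. In control livers it was far more abundant per length, at 5.32 FPKM, than *Klrd1* at 0.167 or *Ncr1* at 0.00756. Which cells carried the *S1pr5* transcript was not tested.

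Of the lymphocyte growth cytokines, 5 of 9 genes were tested. *Il15*, which sustains NK and CD8 T cells, had 40, 33 and 33 counts in control and 83, 114 and 85 in g*Spns1*-cKO livers (0.97 ± 0.27, adjusted p = 0.015 by edgeR). *Tnfsf13b*, the gene of the B cell survival factor BAFF, had 20, 17 and 8 counts against 36, 59 and 44 (1.20 ± 0.40, adjusted p = 0.0337). With under 10 counts in 1 control library, *Tnfsf13b* passed the filter only through the g*Spns1*-cKO livers. *Il18*, an activator of NK cells, had 459, 369 and 312 counts against 403, 327 and 378, and its scaled level fell (-0.47 ± 0.16, adjusted p = 0.0405). That call was lost with library size only (-0.028, adjusted p = 0.895) and with upper-quartile scaling (-0.34, adjusted p = 0.118). *Il7* (0.14 ± 0.50, adjusted p = 0.848) and *Tnfsf13* (0.31 ± 0.50, adjusted p = 0.646) did not pass. *Il2*, *Il12a* and *Il12b* had at most 5 counts in any library and *Il21* had 0 in all.

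Of the genes of lymphoid progenitors, *Rag1*, *Rag2*, *Vpreb2* and *Igll1* had 0 counts in every library. *Vpreb1* had 9, 3 and 1 counts in control and 5, 7 and 5 in g*Spns1*-cKO livers and was not tested. *Dntt*, the template-free DNA polymerase of antigen receptor assembly, had 243, 218 and 194 counts against 172, 25 and 53. Its groups did not overlap, g*Spns1*-cKO replicate 1 stood near the controls, and the difference did not pass (-1.79 ± 0.70, adjusted p = 0.0947 by edgeR).

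**Figure D5:**
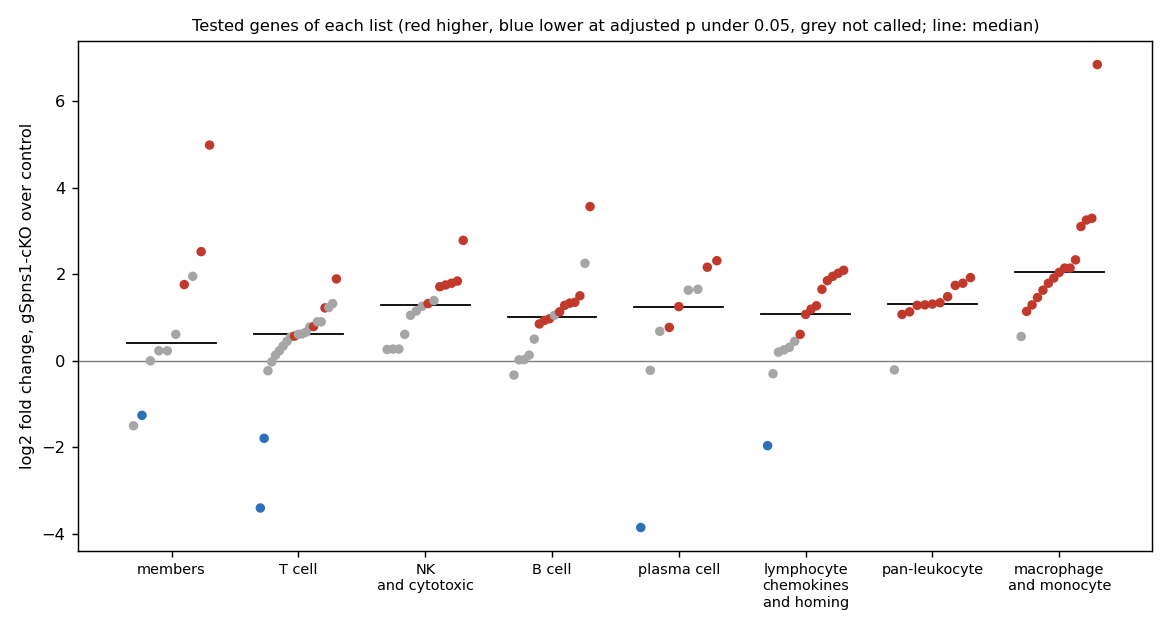
Log2 fold change of every tested gene, g*Spns1*-cKO over control, for the 10 lymphocyte genes and the lists of other genes, with red for higher, blue for lower, grey for not called and a line at the median. Medians are 0.61 for the T cell list, 1.29 for NK and cytotoxic, 1.01 for B cell and 2.04 for macrophage and monocyte genes.

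Markers of other liver cells moved between the groups at the same time, where 21.3% of all genes tested rose and 20.5% fell. Neutrophil genes were higher in 4 of 5 tested, including *Retnlg* (2.32) and *Csf3r* (1.97 on the log2 scale), and macrophage genes were led by *Gpnmb* (6.84) and *Itgax* (3.29). *Retnlg* and *Gpnmb* had under 10 counts in at least 1 control library, so that the filter favoured a rise for them. Cholangiocyte genes were higher in 5 of 5, led by *Epcam* (3.11) and *Krt19* (2.29), stellate cell genes in 4 of 5 and endothelial genes in 4 of 5. The leading genes were *Pdgfrb* (1.82) and *Dcn* (1.57) in stellate cells, *Lyve1* (1.74) and *Stab2* (1.19) in endothelium. Hepatocyte genes were lower in 4 of 6, including *Serpina1a* (-1.27) and *Apoa1* (-0.76), and summed to 97075 to 110868 CPM in control and 58112 to 66908 CPM in g*Spns1*-cKO livers. With scaling by library size only, *Serpina1a* alone stayed lower, while *Apoa1* (-0.32), *Alb* (-0.28) and *Tat* (-0.11) were not called and *Cps1* was higher (0.80, adjusted p = 0.00208, edgeR). The part of these shifts in the lymphocyte gene values was not tested.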

How the data were processed

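Liver RNA was poly-A selected and sequenced on an Illumina platform by a commercial service. Per the submitters' processing notes the tools were fastp, HISAT2 2.0.5 and featureCounts 1.5.0-p3 with mm10, while the use of strand in counting is not given in the sources used here. The authors deposited raw counts per gene and library, not pooled, beside FPKM values, which divide counts by gene length and a library total. The table's own fold changes and p-values were not used.

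Samples were grouped by their labels. Counts of 3 g*Spns1*-cKO and 3 control libraries were compared in R 4.3.3 with edgeR 4.0.16 (filterByExpr, TMM, glmQLFit robust, glmQLFTest), with Benjamini-Hochberg adjustment over 15449 genes and a threshold of 0.05. Only FPKM means, as levels per length, came from the deposited FPKM. Exact two-sided permutation tests of log2(CPM + 0.1) cannot give less than p = 0.1 for 3 mice against 3, so that the calls rest on edgeR's model. The exact interval for *Ncr1* and the 3-count floor cover counting error only, as the protocol has no molecular identifiers. The edgeR intervals also include the estimated spread between mice. Libraries of 1 group differed by more than sampling noise (chi-square per gene 42.5 to 126). Gene positions are those of the deposited table and promoter windows follow RefSeq gene starts, both on GRCm38 (mm10). Fits were tested on simulated data.

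The members and lists were chosen with earlier results of these data known. Named are all members, *Spns1*, *Ptprc*, the most changed tested genes of each list (3 for lymphocyte and homing lists, 2 for others), and growth cytokines and progenitor genes with a count. Other genes were named after their values were seen, as were the motifs. Alternatives were DESeq2 1.42.0, limma-voom (limma 3.58.1), library size only, upper-quartile scaling, 2 filters on low counts, a replicate block and leaving out each mouse. A gene of the B cell list is not reported here.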

Additional observations from a re-analysis of the deposited data

How the results depend on the processing

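*Gzma*, *Nkg7* and *Ncr1* stayed higher and past the threshold in the 12 alternatives that tested them, with log2 fold changes of 2.24 to 3.1, 1.32 to 2.19 and 4.29 to 7.07. The filter of at least 10 counts in every library removed them with *Cd3e* and *Cd8a*, so that 0 members were then called higher. Scaling by library size only called 5 members higher, with *Cd8a* and *Cd79a* (1.05, adjusted p = 0.0455, edgeR) added, and 0 lower. It shifted all genes to a median of 0.46 on the log2 scale and the calls from 3286 higher and 3166 lower to 7289 and 970, and upper-quartile scaling gave 4111 and 2240 with a median of 0.14. With at least 1 count in any library the median was 0.15. *Cd8a* passed in 5 alternatives, with adjusted p between 0.000319 and 0.185 over all of them. Leaving out 1 mouse gave 3 members higher throughout and between 0 and 1 lower. *Cd3e* changed sign under upper-quartile scaling (0.13), library size only (0.45), limma-voom (0.19) and the replicate block (0.058), and ranged from -0.44 to 0.53 without 1 mouse, never past the threshold.

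Per the methods the controls were littermates, but which mice shared a litter is not given in the sources used here. A block by replicate number therefore need not follow litters. In the labels, mice of the 2 groups share only a number. Their deviations from the group means correlated at 0.0371, 0.0331 and -0.0279 for numbers 1, 2 and 3, and g*Spns1*-cKO replicate 3 correlated best with control replicate 1 (0.0301). With a replicate block 2 members were lower, *Cd4* and *Ighm* (-1.41, adjusted p = 0.00735), and *Cd8a* passed (2.17, adjusted p = 0.0413, edgeR). Over all genes the block called 3084 higher and 3016 lower.

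In the lists, genes called higher numbered 0 to 9 for T cells, 3 to 10 for NK and cytotoxic, 5 to 10 for B cells, 2 to 6 for plasma cells and 7 to 11 for homing over the alternatives. All members but *Ighm* had under 100 counts in every library, where counting error adds most to the spread between mice. The denominator *Ptprc* alone was added after seeing the data.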

Other observations

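Erythroid genes, which mark blood and any blood formation in the liver, were higher in 2 of 6 tested and lower in 1. Over all genes tested 21.3% rose and 20.5% fell, so that these counts do not set the list apart. *Alas2*, the first enzyme of haem synthesis in red cell precursors, had 2588, 2603 and 2202 counts in control and 528, 226 and 346 in g*Spns1*-cKO livers (log2 fold change -3.17 ± 0.33 SE, adjusted p = 0.000772 by edgeR). *Hba-a1*, an alpha globin gene, had 623, 788 and 398 counts against 1597, 1130 and 2674 and rose (1.16 ± 0.35, adjusted p = 0.0413). Of the dendritic cell genes, *Flt3*, the receptor for their growth factor, had 6, 5 and 2 counts against 19, 28 and 22 (1.96 ± 0.51, adjusted p = 0.0114), and *Batf3*, a transcription factor of cross-presenting dendritic cells, had 8, 17 and 7 counts against 39, 70 and 53 (1.91 ± 0.42, adjusted p = 0.00458). Both genes had under 10 counts in at least 1 control library, so that the filter on low counts favoured a rise.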
